A study of Mus musculus with 24 samples.

Results

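Xenobiotic metabolism enzymes convert drugs, dietary chemicals and endogenous lipids and hormones into forms that can be excreted. The genes described here were the protein-coding genes with a mouse symbol starting with Cyp1 to Cyp4, Ugt1a, Ugt2a, Ugt2b, Gsta, Gstm, Gsto, Gstp, Gstt or Sult that had a mean of at least 10 raw counts over 24 libraries. Of 140 protein-coding genes with such a symbol, 84 met that minimum and 56 did not, out of 45513 genes in the count files. The 84 members were 46 of 81 Cyp genes, 13 of 18 Ugt genes, 19 of 20 Gst genes and 6 of 21 Sult genes. Members just inside the minimum were Cyp2c23, with a mean of 11.2 counts, Ugt1a9 with 18.9 and Cyp3a41b with 24.3. Genes just outside it were Cyp3a57 with 9.38 counts, Cyp4f39 with 8.54 and Cyp2j13 with 8.08. No Cyp1 gene was a member. Cyp1a1, the classic target of the aryl hydrocarbon receptor, had a mean of 1.75 counts and at most 17 in any library.

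RNA came from crypt-enriched epithelium of adult C57BL/6 mice of both sexes that were homozygous for a knockin at Atoh1, a transcription factor of intestinal secretory cells. In both alleles CreERT2 lay downstream of the Atoh1 coding sequence. WT mice carried Atoh1(WT)CreERT2, and 9S/T-A mice carried Atoh1(9S/T-A)CreERT2, in which 9 serines or threonines that precede proline are alanine. All mice also had the R26RtdTom reporter and a single 3 mg intraperitoneal dose of tamoxifen the day before collection. Tamoxifen is itself a substrate of cytochromes P450, and no library without it was analysed here. Live cells positive for EpCAM and tdTom were sorted from proximal small intestine (SI) and from colon, so that each of 4 groups (each genotype in each tissue) had 6 libraries, numbered 2 to 7. The study asked how ATOH1 that cannot be phosphorylated at these sites affects secretory cells and their precursors. The series text speaks of 6 mice in all while a figure legend of the study gives n = 6 for each genotype, and the labels do not tie each library to a mouse, so p-values measure the spread between these libraries.

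Cytochromes P450 (Cyp) carry out the first phase of the pathway, oxidising a substrate with electrons from P450 reductase, and many members of the Cyp2 and Cyp4 families also oxidise fatty acids. In the second phase, UDP-glucuronosyltransferases (Ugt) add glucuronic acid, glutathione S-transferases (Gst) add glutathione and sulfotransferases (Sult) add sulfate, after which transporters export the conjugate. In the intestine these enzymes are best known from absorptive enterocytes, which meet the substrates first.

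Promoter sequence is shown for 5 members that differed widely between tissues and are plotted by library, 3 of them higher in SI (Gsta1, Cyp3a11, Cyp2b10) and 2 higher in colon (Sult1a1, Cyp2c55). The letters are from the RefSeq promoter table (GRCm38.p6), written 5′ to 3′ in the direction of transcription, and each stretch ends 1 base before the gene start in the count files. They lie at chr9:78230419-78230655 on the plus strand (Gsta1), chr5:145879965-145880104 on the minus strand (Cyp3a11), chr7:25897408-25897619 on the plus strand (Cyp2b10), chr7:126676433-126676668 on the minus strand (Sult1a1) and chr19:39006769-39007018 on the plus strand (Cyp2c55). Capitals mark any of 3 motifs, searched on both strands.
Gsta1: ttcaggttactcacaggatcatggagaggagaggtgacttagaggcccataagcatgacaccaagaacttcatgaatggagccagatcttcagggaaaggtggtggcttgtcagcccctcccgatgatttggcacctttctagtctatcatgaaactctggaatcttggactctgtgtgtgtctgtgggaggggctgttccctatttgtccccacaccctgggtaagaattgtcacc
Cyp3a11: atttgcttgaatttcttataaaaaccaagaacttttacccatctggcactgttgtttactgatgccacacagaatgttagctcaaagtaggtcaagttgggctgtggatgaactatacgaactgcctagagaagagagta
Cyp2b10: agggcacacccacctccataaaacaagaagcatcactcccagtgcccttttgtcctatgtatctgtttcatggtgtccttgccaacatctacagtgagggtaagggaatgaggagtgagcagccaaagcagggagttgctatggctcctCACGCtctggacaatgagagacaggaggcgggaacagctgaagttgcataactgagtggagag
Sult1a1: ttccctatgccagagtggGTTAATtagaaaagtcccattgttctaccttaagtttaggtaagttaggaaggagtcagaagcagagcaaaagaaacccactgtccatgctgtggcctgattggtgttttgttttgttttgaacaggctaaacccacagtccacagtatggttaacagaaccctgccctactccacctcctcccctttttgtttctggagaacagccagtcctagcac
Cyp2c55: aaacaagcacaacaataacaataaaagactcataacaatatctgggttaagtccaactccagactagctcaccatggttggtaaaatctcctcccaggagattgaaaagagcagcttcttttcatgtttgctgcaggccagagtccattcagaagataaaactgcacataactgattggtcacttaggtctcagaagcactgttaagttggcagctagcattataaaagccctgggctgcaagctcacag

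The motifs were GCGTG, the core of the dioxin response element, TGACNNNGC, the core of the antioxidant response element, and GTTAAT, letters recognised by hepatocyte nuclear factor 1. In the stretches shown, Cyp2b10 had GCGTG on the opposite strand (CACGC as written), starting 63 bases before the end of the stretch, and Sult1a1 had GTTAAT 218 bases before the end. Promoter windows of 300 bases were found for 73 of the 84 members (87 windows, since some genes have several starts). GCGTG was in 21.8% of the members' windows and in 32.4% of all 32851 windows of the same length. TGACNNNGC was in 8.0% of the members' windows and 12.4% of all windows, and GTTAAT in 14.9% and 7.1%. TGACNNNGC and GCGTG can share letters. GTTAAT was about as frequent in windows of members called higher in colon in WT (17.9%) as in those called lower (17.1%).

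Library totals ran from 36 to 65.8 M counts (M for mega). Fcgbp, a goblet cell gene, alone took 12.0% (WT) and 13.5% (9S/T-A) of the SI counts, while the top gene of the colon groups took 1.96% and 2.7%. Levels are therefore given as counts per M scaled by TMM (CPM), a method that sets most genes equal between libraries. Goblet markers were present throughout (summed CPM of 12 genes 317400 to 512200 in SI and 39740 to 87300 in colon). Paneth markers (12 genes) summed to 50370 to 105400 CPM in SI and 9625 to 27320 in colon. In WT 11 of the 12 were called lower and 1 higher in colon. Of these, Lyz1 was at 26120 ± 4280 CPM (SD, n = 6) in SI of WT mice and at 27.34 ± 10.1 in their colon. Atoh1 had a mean of 92.3 CPM in WT and 75.01 in 9S/T-A SI, and of 102.8 and 85.91 in the respective colon groups, but gene counts cannot show which allele was read. Markers of absorptive cells, which the reporter is not meant to label, were also present, and 0 of 20 were at zero counts in any group. Their summed CPM was 5297 to 11910 in SI and 781.7 to 1297 in colon. Stromal markers summed to at most 22.39 CPM, with Col3a1 and Lum at zero counts in every group. Leukocyte markers summed to 1563 to 2883 CPM in SI, nearly all of it Lyz2 (2317 ± 362 in WT SI), while Ptprc, which defines leukocytes, had 5.366 ± 2.64 CPM.

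Most members were expressed in these sorted secretory cells at a low level. In WT SI, 63 of 84 members had a mean of at least 1 CPM, 37 at least 10 and 7 at least 100. The same counts were 69, 39 and 9 in 9S/T-A SI, 64, 36 and 6 in WT colon, and 62, 32 and 6 in 9S/T-A colon. All members together took 0.216% ± 0.0361 (SD, n = 6) of the SI counts in WT and 0.253% ± 0.0595 in 9S/T-A, and 0.288% ± 0.0136 and 0.261% ± 0.0179 of the colon counts. In TMM-scaled CPM the order of the tissues was the opposite, with sums of 2689 ± 530.9 (WT) and 3376 ± 678.2 (9S/T-A) in SI and 2223 ± 157.7 and 2048 ± 201.2 in colon. Between genes, levels were compared per kb of exon (CPM per kb). The glutathione transferases led in SI, where Gsta4, which conjugates the lipid peroxidation product hydroxynonenal, had 439.4 ± 69.21 CPM per kb in WT, 26.3% of the sum over all members. Next came Gsta1 with 221.9 ± 44.81 and Gstp1, the pi class enzyme, with 137.6 ± 20.94 CPM per kb. In WT colon Gstm1, of the mu class, and Gstp1 were level at 139.5 ± 19.28 and 139.3 ± 17.73 CPM per kb.

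In the Ugt and Sult families a few genes held most of the signal, and the Cyp signal was spread over more genes. In the Cyp, Gst and Sult families the leading gene differed between tissues. Among Cyp genes, Cyp2c68 (42.39 ± 8.038 CPM per kb) and Cyp4f14, a leukotriene and fatty acid hydroxylase (40.54 ± 17.87), were highest in WT SI and did not differ beyond their spread. In WT colon Cyp2c55, which oxidises arachidonic acid, had 70.99 ± 13.49 CPM per kb, 27.4% of the Cyp sum, ahead of Cyp2c68 (25.83 ± 7.754) and Cyp2d34 (25.53 ± 10.46). Ugt2b34 made up 60.2% of the Ugt sum in WT SI (55.93 ± 11.8 CPM per kb) and 64.1% in WT colon (66.47 ± 8.03). It was followed by Ugt1a1, the enzyme that conjugates bilirubin, in WT SI (11.02 ± 4.309) and by Ugt1a7c in WT colon (11.55 ± 1.878). Ugt1a reads could be counted only outside the exons these genes share, and per unshared kb the levels were 26.85 ± 10.5 for Ugt1a1 in WT SI and 25.45 ± 4.137 for Ugt1a7c in WT colon. On that scale Ugt2b34 made up 47.4% and 52.7% of the Ugt sum. Among sulfotransferases, Sult1d1 (21.1 ± 5.721 CPM per kb) was highest in WT SI, and Sult1a1, a phenol sulfotransferase, in WT colon (93.3 ± 10.76, 55.5% of the Sult sum). Reads were assigned by primary alignment, so genes with near-identical copies are uncertain. Of 50-base words in the Gsta1 exons, 90.5% also occurred in another gene, mostly Gm3776, against 49.8% for Gsta2, 43.3% for Cyp2c68, 33.7% for Gstp1 and 0 for Gsta4. The Ugt1a genes share their last exons, where a read could not be assigned to 1 of them.

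**Figure D1:**
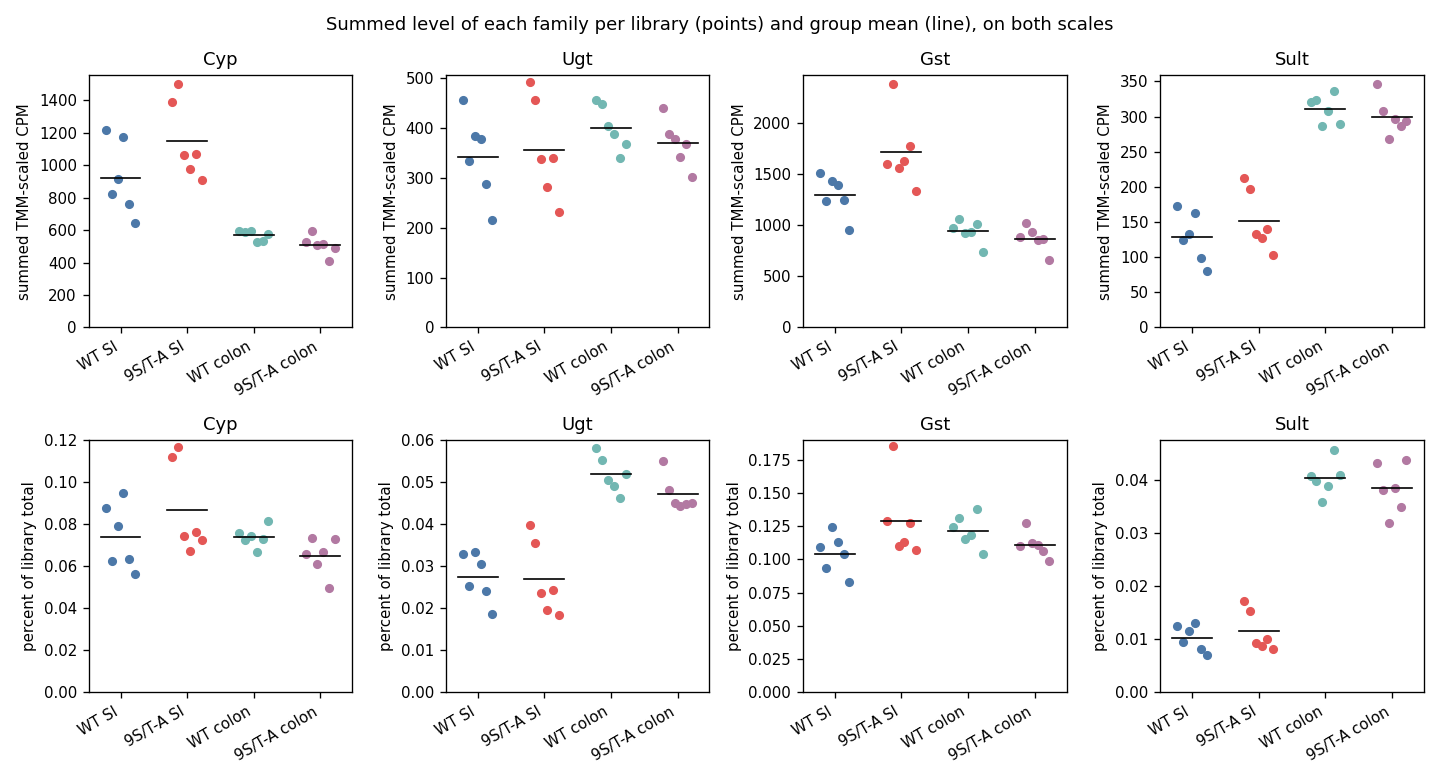
Summed level of the 46 Cyp, 13 Ugt, 19 Gst and 6 Sult members in each library (points) with the group mean (line), as TMM-scaled CPM (top) and as a percent of the library total (bottom). The Sult sum is higher in colon on both scales, from 80.81 to 212.6 CPM in SI and from 267.9 to 346.2 CPM in colon. The Cyp sum is lower in colon in CPM. As a percent its mean is 0.074 in both tissues in WT, and 0.0865 in SI and 0.065 in colon in 9S/T-A.

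Tissue was the larger difference for these genes. In WT, 65 of 80 members tested were called between colon and SI by edgeR's quasi-likelihood test at a Benjamini-Hochberg adjusted p under 0.05, 28 higher and 37 lower in colon. Of all 16979 genes tested, 63.6% were called, 33.1% higher and 30.4% lower, so the members' share was somewhat above that of genes at large, on the lower side. In 9S/T-A, 69 of 84 members were called, 23 higher and 46 lower, against 60.9% of all genes (32.9% higher, 28.0% lower). Those comparisons use different libraries. Of the members called higher in colon in WT, 22 (78.6%) were called higher in 9S/T-A too, which is 95.7% of the calls there, and 36 of those called lower in WT (97.3%) were called lower in 9S/T-A (78.3%). None was called in opposite directions. The overlap over all genes was not computed. Since 63.6% (WT) and 60.9% (9S/T-A) of all genes were called, the overlap is not read as particular to the members. The median log2 fold change of the members was -0.20 in WT and -0.83 in 9S/T-A, beside 0.03 and 0.04 over all genes tested. These medians and calls cover 80 members in WT and 84 in 9S/T-A. Over the same 84 members, in 1 fit of all 24 libraries, the medians were -0.37 and -0.80, beside 0.06 and 0.07 over all genes. That fit called 69 members in WT and 67 in 9S/T-A, 40 and 44 of them lower, beside 62.3% and 62.9% of all genes.

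The direction depended on the scaling for small differences. With plain library totals in place of TMM, the median of all genes shifted to 0.74 in WT and 0.85 in 9S/T-A, and calls became 40 higher and 26 lower in WT and 36 higher and 34 lower in 9S/T-A. On that scaling 83.3% (WT) and 83.8% (9S/T-A) of all genes were called, and the members' share, 66 of 80 and 70 of 84, was not above it. Directions given for single genes below hold under both scalings unless stated. A member near zero counts in a tissue passed the filter through the other tissue, so these counts are a description of the members. Absorptive markers moved with tissue as well, with 15 of 20 called lower and 3 higher in colon in WT. Their part in the differences was not tested, and in bulk RNA fewer cells of a type and less RNA per cell cannot be told apart.

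**Figure D2:**
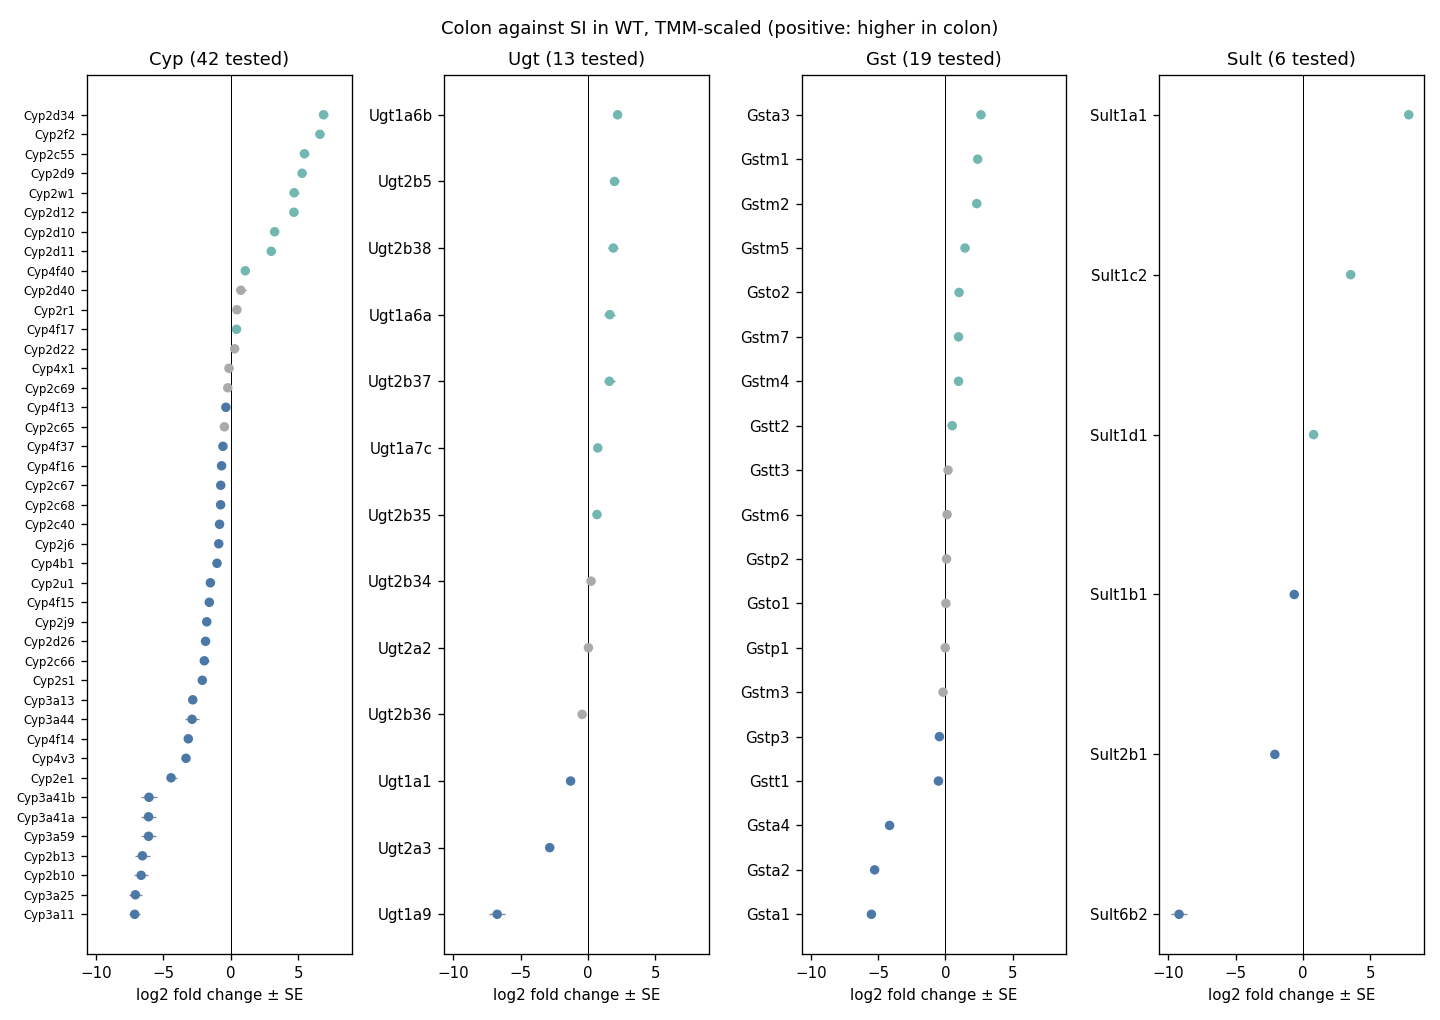
Log2 fold change of colon against SI in WT for the 80 members tested (points, with bars for the SE), by family. Green points were called higher and blue points lower in colon (adjusted p under 0.05), and grey points were not called. The fitted changes run from -9.19 (Sult6b2, which rests on 3 counts in colon) to 7.86 (Sult1a1), and all 7 Cyp3 genes tested lie on the lower side.

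The P450s changed in both directions, and some subfamilies were mixed. Of 7 Cyp2c genes tested in WT, 1 rose and 4 fell in colon (2 rose and 1 fell with plain library totals). All 7 Cyp3 genes tested in WT fell in colon (log2 fold change -2.82 to -7.13), and all 8 tested in 9S/T-A did. Cyp3a11 (ENSMUSG00000056035, GRCm38 chromosome 5, 145854426 to 145879964), a main drug-oxidising enzyme of the mouse and a target of the pregnane X receptor, had 9.642, 34.36 and 42.03 CPM in the lowest, median and highest WT SI library. In WT colon the corresponding values were 0.08215, 0.189 and 0.4799 CPM. The lowest SI library was thus far above the highest colon library, and the log2 fold change was -7.13 (SE 0.42, adjusted p = 8.12e-10). Cyp2b10 (ENSMUSG00000030483, chromosome 7, 25897620 to 25926624), the classic target of the constitutive androstane receptor, ran from 5.715 to 43.41 CPM in WT SI (median 24.4) and from 0.1408 to 0.3297 in WT colon. It fell by 6.65 on the log2 scale (SE 0.497, adjusted p = 1.37e-08). Cyp3a25 fell by 7.08 (SE 0.495, adjusted p = 6.16e-09), from 17.65 ± 9.704 to 0.13 ± 0.1028 CPM. More moderate differences were found for Cyp3a13, an intestinal member (91.36 ± 23.45 CPM in WT SI, 13.27 ± 2.871 in WT colon, log2 fold change -2.82), and Cyp4f14 (97.49 ± 42.97 and 11.18 ± 3.333 CPM, -3.15). Cyp2c68 was lower in colon by 0.75 (SE 0.181, adjusted p = 0.00193), but its groups overlapped, and with plain library totals the change was -0.03 (adjusted p = 0.87, from 6.69e-05 to 0.87 over 21 alternatives).

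Other P450s were abundant in colon and low in SI. Cyp2c55 (ENSMUSG00000025002, chromosome 19, 39007019 to 39042693) had 0.8301, 3.298 and 4.756 CPM in the lowest, median and highest WT SI library and 103.8, 144.1 and 176.3 CPM in WT colon. It rose by 5.47 on the log2 scale (SE 0.311, adjusted p = 5.35e-10), with no overlap. Cyp2d34 ran from 0.2488 to 0.5109 CPM in WT SI and from 27.45 to 73.77 CPM in WT colon (log2 fold change 6.89, SE 0.295, adjusted p = 1.89e-11). The highest of those colon libraries, number 7, stood apart from the next at 44.62 CPM. Cyp2f2, known for activating naphthalene in airway cells, had 0.08269 ± 0.06265 CPM in WT SI and 8.404 ± 2.089 in WT colon (6.62, SE 0.33, adjusted p = 1.09e-10). Of the 8 Cyp2d genes tested, 5 rose and 1 fell in WT colon (median 3.13), the exception being Cyp2d26 with 36.25 ± 20.58 CPM in SI and 10.15 ± 1.836 in colon. Over the Cyp family 10 rose, 26 fell and 6 were not called (median -0.79, and -0.07 with plain library totals, where 15 rose and 18 fell). The Cyp4 genes, which hydroxylate fatty acids, had 2 higher and 7 lower of 10 tested (median -0.63), a direction that did not hold with plain library totals (3 higher, 3 lower, median 0.09).

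Glucuronosyltransferases changed in both directions. Of 13 Ugt genes tested in WT, 7 rose in colon, 3 fell and 3 were not called (9 rose and 3 fell with plain library totals). In 9S/T-A 4 rose and 4 fell (9 rose and 2 fell with plain library totals). The gains were moderate, led by Ugt1a6b (0.5189 ± 0.2038 to 2.448 ± 0.7071 CPM, log2 fold change 2.19, SE 0.261, adjusted p = 2.74e-06), Ugt2b5 (3.19 ± 1.903 to 12.78 ± 2.242, 1.96) and Ugt2b38 (0.5133 ± 0.3634 to 1.957 ± 0.2358, 1.87). Ugt2b5 and Ugt2b38 share 41.7% and 37.4% of their 50-base words with other genes, mainly each other, so reads may have been divided between them. Ugt1a6b shares 79.8% of its words, mainly with Ugt1a6a, beside 60.6% of its exon bases that lie in other genes. Some reads counted for Ugt1a6b may thus belong to Ugt1a6a. Ugt1a1 had 11.94, 26.39 and 34.21 CPM in the lowest, median and highest WT SI library and 7.854, 9.703 and 13.72 CPM in WT colon. It fell by 1.30 (SE 0.238, adjusted p = 0.000191), with a small overlap between the groups. Ugt2a3, which acts on bile acids, fell by 2.85 (SE 0.238, adjusted p = 4.93e-08), from 20.38 ± 8.219 to 2.888 ± 0.2791 CPM. Ugt1a9 was counted 197 times over the WT SI libraries and 2 times over the WT colon libraries, an SI to colon ratio of 157 (95% exact interval 42.9 to 1310, for counting error only). The predominant Ugt2b34 had 241.2 ± 50.87 CPM in WT SI and 286.6 ± 34.62 in WT colon. That difference of 0.22 (SE 0.131) was not called (adjusted p = 0.163), whereas it was with the replicate block (adjusted p = 0.0272) and with plain library totals (0.94, adjusted p = 8.68e-07), the p running from 8.68e-07 to 0.294 over 21 alternatives.

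Glutathione transferases also differed in both directions. The alpha class held both the strongest losses and a gain in colon. Gsta1 (ENSMUSG00000074183, chromosome 9, 78230656 to 78242684) ran from 148.6 to 272.9 CPM in WT SI (median 212.7) and from 3.927 to 6.573 CPM in WT colon (median 4.632), which is -5.50 on the log2 scale (SE 0.173, adjusted p = 7.01e-13). Gsta4 (ENSMUSG00000032348, chromosome 9, 78191966 to 78209348) ran from 329.1 to 529.6 CPM in WT SI and from 20.46 to 26.53 CPM in WT colon, a change of -4.15 (SE 0.118, adjusted p = 2.36e-13). Gsta2 fell by 5.26 (SE 0.253, adjusted p = 7.38e-11). No colon library reached the lowest SI library for any of these 3 genes. Gsta3, which in the mouse conjugates the epoxide of aflatoxin, went the other way, with 1.122 ± 0.5548 CPM in WT SI and 7.193 ± 1.829 in WT colon (log2 fold change 2.63, SE 0.289, adjusted p = 1.15e-06). Among 7 Gstm genes, 5 rose in colon and 0 fell in WT, while 4 rose and 2 fell in 9S/T-A. With plain library totals 6 rose and 0 fell in WT, and 5 rose and 0 fell in 9S/T-A. Gstm1 rose from 38.32 ± 11.58 to 205.5 ± 28.41 CPM (2.39, SE 0.195, adjusted p = 3.76e-08) and Gstm2 from 15.4 ± 4.744 to 79.06 ± 9.914 CPM (2.32, SE 0.18, adjusted p = 2.01e-08). Gstp1 was close to equal, at 104.2 ± 15.85 and 105.5 ± 13.42 CPM (-0.02, SE 0.109, adjusted p = 0.914), though with plain library totals it was called higher in colon (0.70, adjusted p = 3.8e-05, against a highest p of 0.994 over 21 alternatives).

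Sulfotransferases showed the widest contrast. Sult1a1 (ENSMUSG00000030711, chromosome 7, 126672865 to 126676432) had 0.263, 0.5945 and 0.9609 CPM in the lowest, median and highest WT SI library. In WT colon it had 117.9, 142.4 and 164.8 CPM. The rise of 7.86 on the log2 scale (SE 0.225, adjusted p = 2.36e-13) was the highest of the 80 members tested in WT, and it was 8.34 in 9S/T-A (SE 0.181, adjusted p = 2.48e-14). Sult1c2 rose from 3.733 ± 0.8415 to 44.71 ± 4.141 CPM (3.55, SE 0.129, adjusted p = 3.09e-12), and Sult1d1, which sulfates catecholamines, from 51.89 ± 14.07 to 92.13 ± 4.853 CPM (0.80, SE 0.148, adjusted p = 0.000217). Sult6b2 was counted 1426 times over the WT SI libraries (1.628 to 8.977 CPM) and 3 times over the WT colon libraries, a ratio of 759 (95% exact interval 259 to 3680). Sult2b1, which sulfates cholesterol and related sterols, fell from 25.33 ± 5.976 to 6.121 ± 1.543 CPM (-2.08, SE 0.18, adjusted p = 7.76e-08). Sult1b1, which acts on thyroid hormones and phenols, was called lower in colon (41.38 ± 14.22 and 27.09 ± 4.608 CPM, -0.64, SE 0.193, adjusted p = 0.00871), but its groups overlapped and its change was 0.08 with plain library totals.

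**Figure D3:**
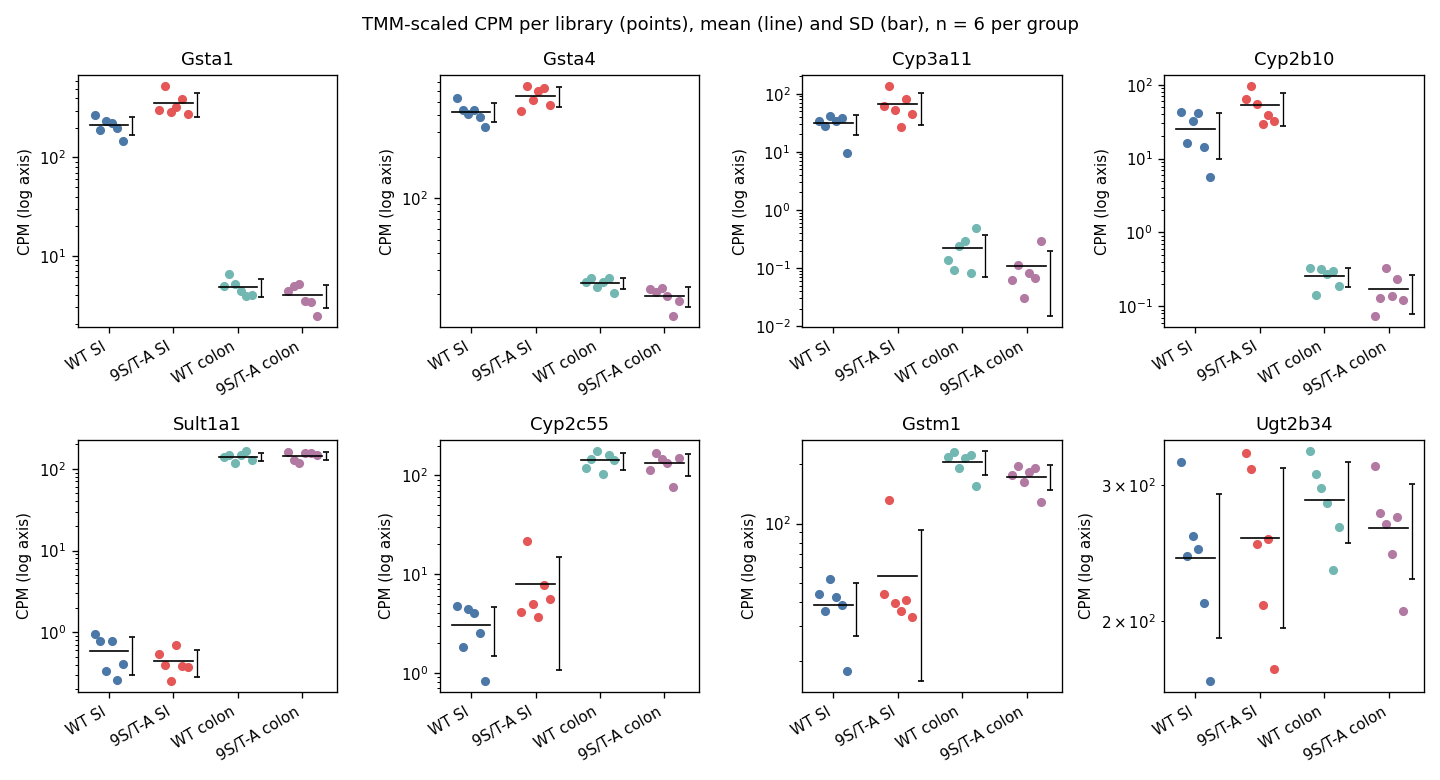
TMM-scaled CPM (log axis) of 8 members in each of the 24 libraries (points), with group mean (line) and SD (bar), n = 6 per group. Gsta1, Gsta4, Cyp3a11 and Cyp2b10 are higher in every SI library than in any colon library, Sult1a1 and Cyp2c55 are higher in every colon library, and Ugt2b34 overlaps between all 4 groups.

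The rest of the pathway was read from hand-written lists. Beside their counts, 33.1% of all genes were called higher and 30.4% lower in WT colon. With plain library totals 83.3% of all genes were called in either direction. Of 6 electron donors, 3 fell in WT colon and 0 rose, including P450 reductase (Por, 107.7 ± 14.6 to 72.25 ± 12.6 CPM, log2 fold change -0.61), but with plain library totals 3 rose and 1 fell, and Por had 0.11 and was not called. Of 40 other xenobiotic enzymes tested, 14 rose and 14 fell, close to the shares of all genes (27 and 5 with plain library totals). The falls included the flavin monooxygenase Fmo5 (98.56 ± 13.6 to 6.813 ± 0.861 CPM, -3.89, adjusted p = 3.08e-13) and the carboxylesterase Ces2e (-2.29). The gains included the carboxylesterases Ces1g (3.98) and Ces1d (3.16), the carbonyl reductase Cbr3 (3.89), and the alcohol and aldehyde dehydrogenases Adh1 (131.4 ± 37.5 to 618.5 ± 52.6 CPM, 2.20) and Aldh2 (1.93). Of 16 genes that supply conjugation donors, 9 rose and 3 fell (13 and 1 with plain library totals). Ugdh, which makes UDP-glucuronic acid, rose by 0.96 and Papss1, which makes the sulfate donor, by 0.60, whereas Gclc, the limiting enzyme of glutathione synthesis, fell by 0.79 but had -0.07 and was not called with plain library totals.

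Sensors and exporters were counted in the same way, beside the same shares of all genes. Of 20 sensors and regulators tested, 5 rose and 10 fell in WT colon (12 and 4 with plain library totals). Nr1i3, the constitutive androstane receptor, fell from 7.492 ± 2.7 to 0.3203 ± 0.112 CPM (-4.57, SE 0.278, adjusted p = 1.16e-09), while Nr1i2, the pregnane X receptor, rose (28.66 ± 3.58 to 38.02 ± 3.9 CPM, 0.38). The aryl hydrocarbon receptor Ahr had 8.052 ± 0.425 CPM in SI and 8.222 ± 0.445 in colon and was not called, except with plain library totals (0.72). Of 16 transporters, 11 fell and 4 rose (9 and 5 with plain library totals). Abcc2, which exports conjugates across the apical membrane, fell from 38.99 ± 15.2 to 0.24 ± 0.0887 CPM (-7.35, SE 0.306, adjusted p = 1.37e-11), and Abcg2 from 92.15 ± 8.64 to 18.85 ± 2.98 CPM (-2.32).

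Between genotypes the members differed far less. In SI, 2 of 81 members tested (2.47%) were called, both higher in 9S/T-A, beside 1.94% of all 16236 genes called and 1.03% called higher. Gsta1 had 148.6, 212.7 and 272.9 CPM in the lowest, median and highest WT SI library and 278.6, 314.7 and 529.6 CPM in 9S/T-A SI. All 6 mutant libraries were above all WT libraries, and the log2 fold change was 0.74 (SE 0.167, adjusted p = 0.0357). Cyp2j9 (ENSMUSG00000015224, chromosome 4, 96568429 to 96591578), of a subfamily that oxidises arachidonic acid, had 4.63, 7.056 and 10.83 CPM in the WT SI group and 10.17, 11.75 and 15.86 CPM in 9S/T-A SI. Its groups overlapped by 1 WT library, number 2, and the log2 fold change was 0.71 (SE 0.171, adjusted p = 0.0466). Both calls were close to the threshold. Leaving out each of the 12 libraries in turn, Gsta1 kept its call in 4 fits and Cyp2j9 in 2, and with plain library totals neither was called (0.64 and 0.61). Over 22 alternatives the adjusted p ran from 0.00106 to 0.0916 for Gsta1 and from 0.00278 to 0.111 for Cyp2j9.

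Below the threshold most members lay on the same side. Of 81 tested, 67 had a positive log2 fold change (median 0.27, beside 0.00 over all genes), and 20 (24.7%) had an unadjusted p under 0.05, all of them positive, beside 15.7% of all genes (7.41% positive). Gsta2 and Gsta4 were among these, whereas the alpha class gene Gsta3 was not (0.66, SE 0.492). Gsta2 ran from 35.38 to 73.6 CPM in WT SI and from 65.7 to 132.3 CPM in 9S/T-A SI (0.71, SE 0.181, adjusted p = 0.0628). Gsta4 ran from 329.1 to 529.6 and from 429.5 to 648.6 CPM (0.38, SE 0.124, adjusted p = 0.147), with every mutant library above the WT mean. Sult2b1 ran from 17.23 to 33.97 and from 30.66 to 38.75 CPM (0.50, SE 0.133, adjusted p = 0.0738). All 8 Cyp3 genes tested were positive (median 1.09), but none was called. Cyp3a11 had 30.92 ± 11.48 CPM in the WT SI group and 66.77 ± 37.37 in 9S/T-A SI (1.10, SE 0.358, adjusted p = 0.147). Sult1a1, Ugt1a1 and Gstm2 had negative values, of -0.43, -0.25 and -0.01, and were not called.

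Library 3 of 9S/T-A SI stood apart. It had the highest value of the group for Gsta1 (529.6 CPM), Cyp3a11 (134.2), Cyp2c55 (21.78), Gsta3 (5.364) and Gstm1 (132.0), and its summed level over all members was 4544 CPM against 2583 to 3689 in the other 5. This library was also highest for Cyp3a16 (3.653 CPM), Cyp3a25 (41.45), Cyp3a41a (3.93), Cyp3a41b (3.283), Cyp3a44 (4.786) and Cyp3a59 (5.803). For Cyp3a13 it was not (128.4 CPM, against a highest value of 141.2). No member was called in 7 of the 12 fits that left out 1 library, this one included. Without it 12 rather than 20 had an unadjusted p under 0.05, and the change of Gsta1 was 0.58 on the log2 scale (edgeR adjusted p = 0.0536). None of 20 absorptive markers was called between genotypes in SI. Their summed CPM was 5297 to 10090 in WT and 7495 to 11910 in 9S/T-A, and their median log2 fold change was 0.25, beside 0.27 for the members. Fabp2, which is abundant in enterocytes, had 629.3 ± 160 and 925.2 ± 211 CPM. The Paneth markers moved the other way, with 6 of 12 called lower (median -0.60). The part of these cells in the members' differences was not tested.

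**Figure D4:**
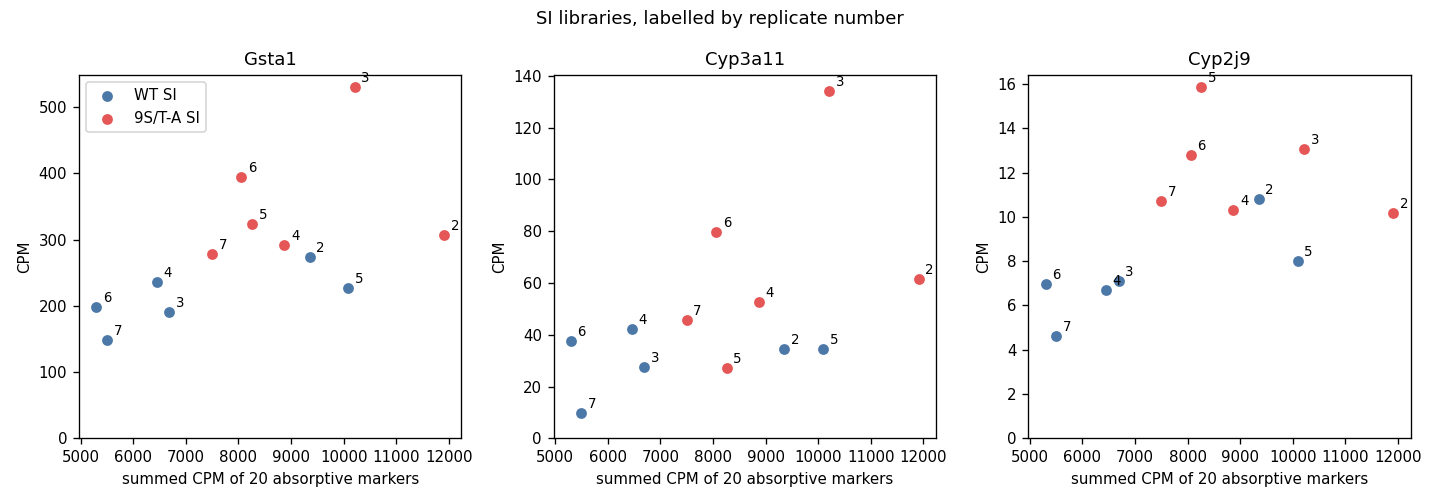
CPM of Gsta1, Cyp3a11 and Cyp2j9 against the summed CPM of 20 absorptive markers in the 12 SI libraries, labelled by replicate number (blue, WT; red, 9S/T-A). Number 3 of 9S/T-A is the highest for Gsta1 (529.6 CPM) and Cyp3a11 (134.2 CPM) but not for the marker sum, where number 2 of 9S/T-A is highest (11910 CPM).

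In the lists of other pathway genes, 1 of 40 other xenobiotic enzymes tested was called between genotypes in SI. None of 6 electron donors, 16 donor supply genes, 21 sensors and regulators and 16 transporters was called there. In colon no list gene was called. Of all genes, 1.94% were called in SI and 0.318% in colon. Tst, the mitochondrial enzyme rhodanese that detoxifies cyanide, rose from 18.64 ± 4.0 CPM in WT SI to 30.28 ± 4.78 in 9S/T-A SI (log2 fold change 0.69, SE 0.147, adjusted p = 0.0255). With plain library totals its change was 0.59 and no list gene was called in SI, whereas in colon the alcohol dehydrogenase Adh1 was called lower in 9S/T-A (-0.36).

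In colon, 0 of 71 members tested were called between genotypes by edgeR, beside 0.318% of all 16997 genes, and 9 members (12.7%) had an unadjusted p under 0.05, all lower in 9S/T-A, beside 8.81% of all genes (4.44% lower). DESeq2 called 2 members, Cyp2d22 and Cyp4b1, beside 1.47% of all genes. Of the 71, 60 had a negative log2 fold change, with a median of -0.14 beside 0.00 over all genes. The smallest p-values belonged to Cyp2d22, with 3.54, 7.862 and 9.074 CPM in the lowest, median and highest WT colon library and 3.322, 4.296 and 4.869 CPM in 9S/T-A colon (-0.73, SE 0.195, adjusted p = 0.189). Cyp4b1, known for activating lung toxins, had 1.709 to 4.93 CPM in WT colon and 0.8406 to 1.886 in 9S/T-A colon (-0.90, SE 0.242, adjusted p = 0.189). Gsta4 had 24.23 ± 2.283 and 19.39 ± 3.088 CPM (-0.30, SE 0.099, adjusted p = 0.332). The groups overlapped for each of these genes. Among abundant colon members, the differences were 0.05 (SE 0.0945) for Sult1a1, -0.08 (SE 0.172) for Cyp2c55, -0.10 (SE 0.0994) for Ugt2b34, -0.22 (SE 0.107) for Gstm1 and -0.31 (SE 0.103) for Sult1c2, none of them called. Cyp3a11 and Cyp2b10 were at most 0.4799 and 0.3311 CPM in any colon library, so a genotype difference could not be resolved there at this depth.

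Whether the genotype difference itself differed between tissues was asked in a fit over all 24 libraries. Without a block, 0 of 84 members were called by edgeR, beside 0.412% of all 17953 genes, and 21 (25.0%) had an unadjusted p under 0.05, beside 9.69% of all genes. DESeq2 called 3 (Gsta1, Gsta2 and Gsta4), beside 1.44% of all genes. The lowest p-values were those of Gsta4 (log2 difference of colon minus SI -0.70, SE 0.172, adjusted p = 0.0722), Gsta1 (-1.02, SE 0.255, adjusted p = 0.0833) and Gsta2 (-1.08, SE 0.317, adjusted p = 0.152). Since SI and colon libraries of the same genotype and number deviated together, the fit was repeated with genotype and number as a replicate block. With it, 6 of 84 members were called, all negative, beside 1.9% of all genes called and 0.641% called negative. They were Gsta1 (-1.02, SE 0.194, adjusted p = 0.0146), Cyp3a13 (-0.50, SE 0.11, adjusted p = 0.0314), Cyp2j6 (-0.42, SE 0.0936, adjusted p = 0.0336), Gsta4 (-0.71, SE 0.163, adjusted p = 0.036), Cyp2d26 (-1.18, SE 0.282, adjusted p = 0.0439) and Cyp4f13 (-0.37, SE 0.0904, adjusted p = 0.0452). Over 33 alternatives the adjusted p ran from 0.0119 to 0.152 for Gsta1 and from 0.012 to 0.132 for Gsta4, and its highest value lay between 0.442 and 0.668 for the other 4.

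For each of these 6 genes the mean was higher in 9S/T-A than in WT in SI and lower in colon. Cyp2j6, of the arachidonic acid oxidising subfamily, had 103.8 ± 21.3 and 135.3 ± 17.96 CPM in WT and 9S/T-A SI, and 57.47 ± 5.511 and 56.6 ± 5.789 in WT and 9S/T-A colon. Cyp2d26 had 36.25 ± 20.58 and 58.22 ± 27.28 CPM in SI and 10.15 ± 1.836 and 7.49 ± 1.453 in colon. Cyp3a13 had 91.36 ± 23.45 and 108.3 ± 24.75 CPM in SI and 13.27 ± 2.871 and 11.01 ± 1.722 in colon. Cyp4f13 had 45.09 ± 3.673 and 54.48 ± 7.103 CPM in SI and 35.9 ± 2.09 and 33.56 ± 4.581 in colon. In both tissues the genotype groups of these 4 genes overlapped. Over all members 74 of 84 differences were negative without the block, with a median of -0.49 beside -0.02 over all genes. Of the 84, only 71 passed the filter for the genotype test in colon. The rest had few colon counts and entered this fit through SI, so their difference is poorly resolved. Counts over all 84 therefore only describe the members.

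**Figure D5:**
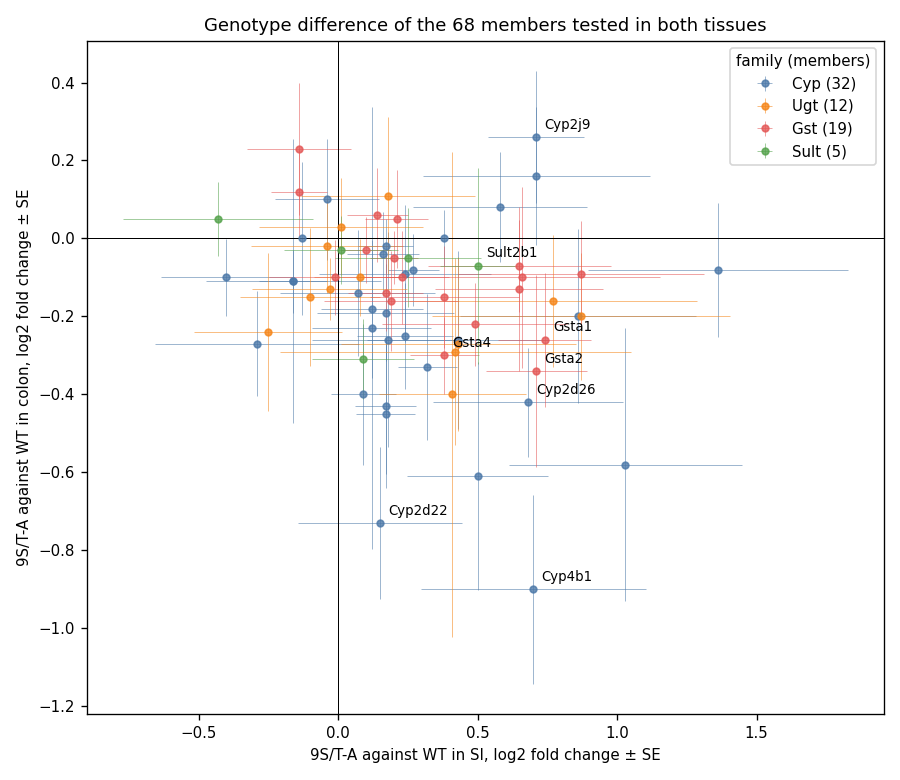
Log2 fold change of 9S/T-A against WT in SI (x axis) and in colon (y axis) for the 68 members tested in both tissues, with bars for the SE, coloured by family. The lower right quadrant, higher in SI and lower in colon, holds 47 of the 68 (69.1%), and over all 15558 genes tested in both tissues it holds 21.5%.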

How the data were processed

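RNA was measured by stranded single-end sequencing of polyadenylated RNA in 24 libraries of sorted EpCAM and tdTom positive cells. The authors aligned reads with TopHat2 2.1.1 to GRCm38.p3 and deposited raw counts per gene, made with featureCounts from Subread 1.5.2 (versions per the paper and the submitters' processing notes). The file headers show that counting was by strand over exons with primary alignments only, and that a read overlapping several genes was left out, so that Ugt1a genes were counted from their unshared exons. Symbols came from GENCODE M21 (44671 of 45513 genes, 98.15%), and 59 of the 84 members had the same position there. Promoters came from the RefSeq table for GRCm38.p6. Totals of 36 to 65.8 M counts limit precision only for the lowest members, and intervals cover counting error only. No pair of libraries was identical (60 pairs within groups).

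The test was that of edgeR 4.0.16 under R 4.3.3 (filterByExpr, TMM factors, two-sided quasi-likelihood test, Benjamini-Hochberg adjustment over all genes tested), applied to genotype in each tissue, to tissue in each genotype, and to their interaction in all 24 libraries. Genes under an adjusted p of 0.05 are called. SEs were derived from the F statistic. Levels are TMM-scaled CPM over all 24 libraries, divided by exon length for comparison between genes. The test was checked on simulated data with independent libraries and few changed genes. That check does not cover the wide tissue differences or libraries that deviate together. SI and colon libraries of the same genotype and number deviated together (correlation of deviations from the group mean over 0.1 in 6 of 6 pairs in WT, mean 0.294, and in 6 of 6 in 9S/T-A, mean 0.372), so tissue and interaction fits were repeated with a replicate block. With it 69 of 80 members were called between tissues in WT (32 higher and 37 lower in colon), beside 69.0% of all genes. In 9S/T-A 73 of 84 were called (26 higher and 47 lower), beside 68.7% of all genes.

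Alternatives were DESeq2 1.42.0, RLE scaling, plain library totals, other filters on low counts, an adjusted p of 0.1, sex as a covariate, a replicate block, all 24 libraries in 1 fit, summed Ugt1a counts and leaving out each library. The members and gene lists were chosen with earlier results of these data known. Named members were those called between genotypes or in the interaction with or without the block, the 3 with the smallest p in each, the 3 largest tissue changes in each direction per family, the 3 highest per kb per family in any group, and Cyp1a1, Cyp3a11, Ugt1a1, Gsta1, Gstm1, Gstp1 and Sult1b1.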

Additional observations from a re-analysis of the deposited data

Results flagged for a closer look

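Among 142 groups of 6 libraries tested for 41 named members and totals, 9 held a library whose gap to its nearest neighbour was past Dixon's 95% critical value as a share of the group's range (6.34%, where chance gives about 1 in 20). Library 3 of 9S/T-A SI was the high one for Cyp2c55 (21.78 CPM, next 7.689), Gsta3 (5.364, next 1.704) and Gstm1 (132.0, next 43.57). In WT SI, library 5 was high for Cyp2d22 (11.23 CPM, next 5.34). In WT colon, library 7 was high for Cyp2d34 (73.77 CPM, next 44.62) and low for Gstm2 (60.1, next 77.8), library 3 was high for Gsta2 (2.598, next 1.489) and library 6 for Sult1c2 (52.58, next 44.9). In 9S/T-A colon, library 6 was low for Cyp4b1 (0.8406 CPM, next 1.677).

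The genotype difference differed between colon and SI, by the interaction fit with genotype and number as a replicate block, for 6 members. The log2 differences (colon minus SI) were -1.02 for Gsta1, -0.71 for Gsta4, -1.18 for Cyp2d26, -0.50 for Cyp3a13, -0.42 for Cyp2j6 and -0.37 for Cyp4f13. By edgeR without the block and with all libraries none of the 6 passed, whereas DESeq2 called Gsta1 and Gsta4 without it, and edgeR did when WT SI 2 was left out.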

How the results depend on the processing

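Members called between genotypes in SI numbered 2, and 4 at an adjusted p of 0.1, 6 with DESeq2, 6 with a replicate block (all genes 1.94%, and 3.46%, 4.82% and 2.94%), 1 with sex as a covariate, 0 with plain library totals and 0 to 4 when 1 library was left out (0 in 7 of 12 fits, without 9S/T-A SI 3, 5 or 6 or WT SI 3, 4, 6 or 7, and 4 without WT SI 2). In colon 0 were called, and 2 with DESeq2, 3 with the block (all genes 0.318%, and 1.47% and 2.27%) and 0 to 1 with 1 library left out (Cyp2d22 without WT colon 4, -0.86, adjusted p = 0.0269). In the interaction 0 were called, and 2 at 0.1, 3 with DESeq2, 6 with the block (all genes 0.412%, and 0.758%, 1.44% and 1.9%) and 0 to 2 with 1 library left out. Same-numbered WT and 9S/T-A libraries share a number and, per the labels, a sex, but nothing there pairs them (correlation over 0.1 in 4 of 6 pairs in SI and 5 of 6 in colon, lowest -0.098 and 0.021, with 2 and 4 of the numbers correlating best with their own). With the block, Gsta2, Sult2b1, Cyp2j6 and Sult6b2 joined Gsta1 and Cyp2j9 in SI, and Cyp2d26, Cyp2f2 and Gstm1 were called lower in colon, as were 3 pathway list genes (Adh1, Ces1d, Papss2), while Slco2a1 was called higher. In 9S/T-A, 36 members instead of 23 were called higher in colon with plain library totals. As TMM-scaled CPM rather than a percent, the log2 ratio of WT colon to WT SI was -0.28 for all members and -0.46 for Gst (from 0.41 and 0.22), -0.69 for Cyp, 0.23 for Ugt and 1.27 for Sult. Members at 10 or more per kb numbered 23 in each colon group, and 41 in WT and 38 in 9S/T-A as TPM. The sign turned for Gstp1 between tissues in WT (0.02 in 1 fit of all 24 libraries, 0.02 without a filter, 0.70 with plain library totals, -0.06 to 0.06 with 1 library left out) and between genotypes in colon (-0.01 to 0.13), and for Sult1b1 between tissues (0.08 with plain library totals) and between genotypes in colon (-0.11 to 0.01). The cause of these changes was not tested. Of the values for named members, 731 with 1 library left out and 494 under other settings kept direction and side of the threshold. Depth limits members under about 1 CPM in a tissue, such as Cyp3a11 in colon.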
